A study of Mus musculus with 31 samples.

Results

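Adipokines are hormones and other proteins that fat cells release, and 5 of their genes were followed in mouse skin: Adipoq, Retn, Lep, Rbp4 and Cfd. The genes were taken by name, and each was represented by the probe set of highest mean among those that carry its symbol alone. Adipoq, Retn, Lep and Rbp4 had 1 such probe set each, so 4 of the 5 were measured among 18193 genes in all, and Cfd (adipsin, a complement protease) was not analysed here. The skin came from C3H/HeJ mice, and the series title names established AA, read here as alopecia areata, an immune attack on the hair follicle, and inhibitors of Janus kinases given on the skin. The 31 Affymetrix arrays fall into 3 arms. PBS, phosphate-buffered saline, is the control arm, and jak1i and jak3i are inhibitors known here only by these codes, with no dose in the sources used here. Every arm has 3 arrays at 0, 6 and 12 weeks, jak1i and jak3i have 2 arrays each at 24 weeks, and no 24-week PBS group was analysed here. The time unit was read from the W in the sample titles. The replicates are called biological, but age, sex, pooling and whether a mouse was sampled more than once are not stated in the sources used here, so p-values measure the spread between these samples.

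Mouse skin carries a layer of white fat below the dermis, next to the bases of the hair follicles, and this layer thickens and thins with the hair cycle. Its mature cells store lipid and secrete adiponectin, resistin, leptin and retinol-binding protein, whose genes come on late in fat cell differentiation under factors such as PPARγ and C/EBPα. Leptin signals through a receptor that itself uses Janus kinases, mainly JAK2, whereas adiponectin acts through AdipoR1, AdipoR2 and T-cadherin. In a sample of whole skin, fewer fat cells and less RNA per fat cell cannot be told apart.

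The 250 bases before the start of each measured gene are shown because the 4 genes moved together, and they allow their upstream letters to be compared. All 4 matched the RefSeq promoter table (build GRCm38.p6), which holds 32851 promoters of this length and gives Rbp4 a pair of starts. Each line runs 5′ to 3′ on the gene's strand, and capitals mark matches on either strand to CCAAT or to TATAAN.
Adipoq, chr16:23146286-23146535, plus strand: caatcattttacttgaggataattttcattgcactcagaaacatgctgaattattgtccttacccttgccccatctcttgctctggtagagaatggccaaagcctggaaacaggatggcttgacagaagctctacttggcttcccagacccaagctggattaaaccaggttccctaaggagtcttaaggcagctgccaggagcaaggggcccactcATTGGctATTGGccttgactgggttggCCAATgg
Retn, chr8:3655520-3655769, plus strand: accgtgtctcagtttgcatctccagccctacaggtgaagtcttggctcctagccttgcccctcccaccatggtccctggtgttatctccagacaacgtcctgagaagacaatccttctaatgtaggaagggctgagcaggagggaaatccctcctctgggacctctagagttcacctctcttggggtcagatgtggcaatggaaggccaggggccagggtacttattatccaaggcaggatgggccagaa
Lep, chr6:29059971-29060220, plus strand: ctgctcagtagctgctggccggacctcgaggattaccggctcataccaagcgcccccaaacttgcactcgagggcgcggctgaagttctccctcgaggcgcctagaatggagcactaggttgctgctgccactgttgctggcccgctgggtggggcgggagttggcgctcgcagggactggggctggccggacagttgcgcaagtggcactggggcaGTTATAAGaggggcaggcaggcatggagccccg
Rbp4, chr19:38124812-38125061, minus strand: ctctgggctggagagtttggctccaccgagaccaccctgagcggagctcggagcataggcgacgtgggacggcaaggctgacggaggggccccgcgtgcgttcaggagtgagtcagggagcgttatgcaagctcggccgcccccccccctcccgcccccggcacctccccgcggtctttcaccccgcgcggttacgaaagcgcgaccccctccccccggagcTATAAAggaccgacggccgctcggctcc
The Adipoq stretch held 3 CCAAT matches, beginning 34, 27 and 7 bases before the start, a number reached by 2.79% of all promoters, while 33.9% have at least 1. Lep held a pair of overlapping TATAAN matches on opposite strands, 33 and 31 bases before the start, and Rbp4 held 1 at 28 bases, where 22.7% of all promoters have at least 1. The Retn stretch held neither motif. TTNNGNAA, the core letters of C/EBP sites, was also searched on both strands, and 36.8% of promoters hold it. It matched Adipoq at 81, Lep at 55 and Rbp4 at 128 and 59 bases before the start, and did not match Retn. DR1, here a perfect direct repeat of AGGTCA with 1 free base between the copies, of the kind that PPARγ with RXR can bind, occurred in 11 promoters (0.033%) and in none of these stretches. The other Rbp4 start (chr19:38125322-38125571, minus strand, not printed) held 1 CCAAT at 162 bases and 1 TTNNGNAA at 9 bases, with no overlap between them. Base composition of the printed stretches ranged from 48.8% G and C in Adipoq and 54.8% in Retn to 65.6% in Lep and 70.8% in Rbp4, against a median of 52.4% over all promoters. The other Rbp4 start had 40.8%. These matches describe letters in a window and say nothing of binding.

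Values are log2 RMA values, on which 1 unit is a 2-fold difference, and levels of different probe sets are not compared. The array medians lay between 6.05 and 6.24. Several arrays stood apart in marker lists, given as the mean log2 value relative to the mean of all arrays. Of the PBS arrays, those at 12 weeks were low in 12 skeletal muscle markers (−5.86, −2.62 and −4.14, against −0.67 to 1.53 in the other 28 arrays), so comparisons with them are given beside those with 0 weeks. Hair shaft markers lay between −3.90 and −1.06 in 10 of the 12 inhibitor arrays at 6 and 12 weeks. They were 3.00 in jak1i at 6 weeks replicate 2 and 3.53 in jak3i at 6 weeks replicate 1, above the 0.37 to 2.88 of the 0-week arrays. The 6 epidermis markers Krt5, Krt14, Krt1, Krt10, Lor and Ivl had mean log2 values of 11.54 to 14.20 over the arrays.

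Adipoq encodes adiponectin, a hormone of mature fat cells that raises insulin sensitivity, and it rose in skin under jak1i. Its log2 values under jak1i were 8.65, 8.92 and 9.76 at 0 weeks, 12.24, 12.30 and 13.35 at 6 weeks, 13.37, 12.15 and 12.79 at 12 weeks, and 12.20 and 12.21 at 24 weeks. Under jak3i they were 10.57, 9.59 and 11.82 at 0 weeks, 12.20, 13.63 and 13.66 at 6 weeks, 11.85, 13.88 and 12.18 at 12 weeks, and 11.80 and 12.35 at 24 weeks. In PBS they were 10.21, 9.57 and 10.42 at 0 weeks, 12.02, 7.97 and 9.63 at 6 weeks, and 9.80, 12.47 and 10.58 at 12 weeks. All jak1i arrays from 6 weeks on lay above every 0-week array of the 3 arms, and the PBS arm spread widely, with replicate 1 at 6 weeks and replicate 2 at 12 weeks reaching the inhibitor range. From 0 to 12 weeks Adipoq rose by 3.66 (SE 0.79, n = 3 each, limma adjusted p = 0.00536) under jak1i, a 12.7-fold difference and the 6th largest rise of all genes. The rise at 6 weeks was 3.53 (SE 0.79, limma adjusted p = 0.0086). Under jak3i the differences from 0 weeks, 2.50 at 6 weeks (limma adjusted p = 0.0708) and 1.98 at 12 weeks (0.0951), did not pass. Against PBS at 6 weeks Adipoq was higher by 3.29 (SE 0.79, limma adjusted p = 0.0325) under jak3i, a 9.76-fold difference, and the difference of 2.76 under jak1i (limma adjusted p = 0.0854) did not pass.

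Retn encodes resistin, a small cysteine-rich hormone that mouse fat cells secrete and that opposes insulin action. Under jak1i it read 7.90, 9.10 and 9.24 at 0 weeks, 11.28, 11.28 and 12.10 at 6 weeks, 12.37, 11.33 and 11.61 at 12 weeks, and 11.25 and 11.10 at 24 weeks. Under jak3i it read 10.05, 9.04 and 10.91 at 0 weeks, 11.04, 12.73 and 12.82 at 6 weeks, 11.39, 13.25 and 11.25 at 12 weeks, and 10.86 and 11.33 at 24 weeks. In PBS it read 9.49, 8.58 and 8.96 at 0 weeks, 11.02, 8.03 and 9.55 at 6 weeks, and 9.30, 11.30 and 9.95 at 12 weeks. The same PBS arrays as for Adipoq were the high ones, and jak3i started higher and closer to its later values than jak1i. Retn rose under jak1i by 3.02 (SE 0.68, limma adjusted p = 0.00643, 8.13-fold) at 12 weeks and by 2.81 (SE 0.68, 0.0124) at 6 weeks. In jak3i the differences of 2.20 at 6 weeks (limma adjusted p = 0.0664) and 1.96 at 12 weeks (0.0616) did not pass, although at neither time did the arrays overlap with those at 0 weeks. Against PBS at 6 weeks Retn was higher under jak3i by 2.66 (SE 0.68, limma adjusted p = 0.0438, 6.34-fold), and the 2.02 of jak1i (0.14) did not pass.

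Lep encodes leptin, the satiety hormone whose level follows fat mass, and its probe set had the smallest range of the 4 over the arrays. Its 0-week means, 5.94 in PBS, 5.60 in jak1i and 6.13 in jak3i, lay near or below the array medians of 6.05 to 6.24. Its fold differences therefore start from a low level. Under jak1i Lep read 4.93, 5.83 and 6.04 at 0 weeks, 6.94, 7.38 and 8.37 at 6 weeks, 8.44, 7.27 and 7.35 at 12 weeks, and 7.43 and 6.75 at 24 weeks. Under jak3i it read 6.87, 5.33 and 6.20 at 0 weeks, 6.60, 8.65 and 8.78 at 6 weeks, 5.90, 8.86 and 7.22 at 12 weeks, and 6.19 and 7.73 at 24 weeks. In PBS it read 6.04, 5.46 and 6.33 at 0 weeks, 6.02, 5.14 and 5.94 at 6 weeks, and 5.42, 6.79 and 5.63 at 12 weeks. The jak1i arrays from 6 weeks on were apart from those at 0 weeks, whereas jak3i overlapped with its 0 weeks at every later time. The rise of Lep under jak1i was 2.09 (SE 0.66, limma adjusted p = 0.0343, 4.26-fold) at 12 weeks, while the 1.96 at 6 weeks (0.0525) did not pass. Its call at 12 weeks was lost (limma adjusted p up to 0.152) without any of replicates 1 and 2 at 0 weeks or replicates 1 and 3 at 12 weeks. Under jak3i the differences from 0 weeks of 1.88 at 6 weeks (limma adjusted p = 0.0994) and 1.19 at 12 weeks (0.211) did not pass. Against PBS at 6 weeks Lep stood 1.86 higher under jak1i (limma adjusted p = 0.156) and 2.31 higher under jak3i (0.0685), and neither passed.

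Rbp4 encodes the retinol carrier of blood, which liver and fat cells secrete, and it was the member called in the most comparisons. Under jak1i Rbp4 read 5.80, 6.58 and 6.78 at 0 weeks, 9.53, 9.23 and 10.33 at 6 weeks, 10.55, 9.35 and 9.62 at 12 weeks, and 9.03 and 9.03 at 24 weeks. Under jak3i it read 7.41, 7.11 and 8.40 at 0 weeks, 8.83, 11.04 and 10.90 at 6 weeks, 9.38, 11.46 and 9.29 at 12 weeks, and 9.13 and 9.18 at 24 weeks. In PBS it read 7.47, 6.57 and 7.42 at 0 weeks, 8.54, 5.64 and 7.55 at 6 weeks, and 6.79, 9.26 and 7.48 at 12 weeks. In both inhibitor arms every later array lay above every 0-week array of its own arm. Rbp4 rose under jak1i by 3.31 (SE 0.71, limma adjusted p = 0.00688) at 6 weeks and by 3.45 (SE 0.71, 0.00455, 10.9-fold) at 12 weeks. Under jak3i it rose by 2.62 (SE 0.71, limma adjusted p = 0.0467) at 6 weeks and by 2.41 (SE 0.71, 0.0392, 5.30-fold) at 12 weeks. Each of these calls was lost without 4 of the 6 arrays in turn (limma adjusted p up to 0.245 and 0.169) and with only the compared arrays in the fit (0.195 and 0.0672). Against PBS it was higher under jak3i by 3.02 (SE 0.71, limma adjusted p = 0.0293) at 6 weeks and by 2.20 (SE 0.71, 0.0377) at 12 weeks. These calls too were lost without 4 of the 6 arrays (limma adjusted p up to 0.23 and 0.195) and with only the compared arrays in the fit (0.345 and 0.123). The jak1i differences from PBS, 2.45 at 6 weeks (limma adjusted p = 0.0894) and 2.0 at 12 weeks (0.0645), did not pass.

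**Figure D1:**
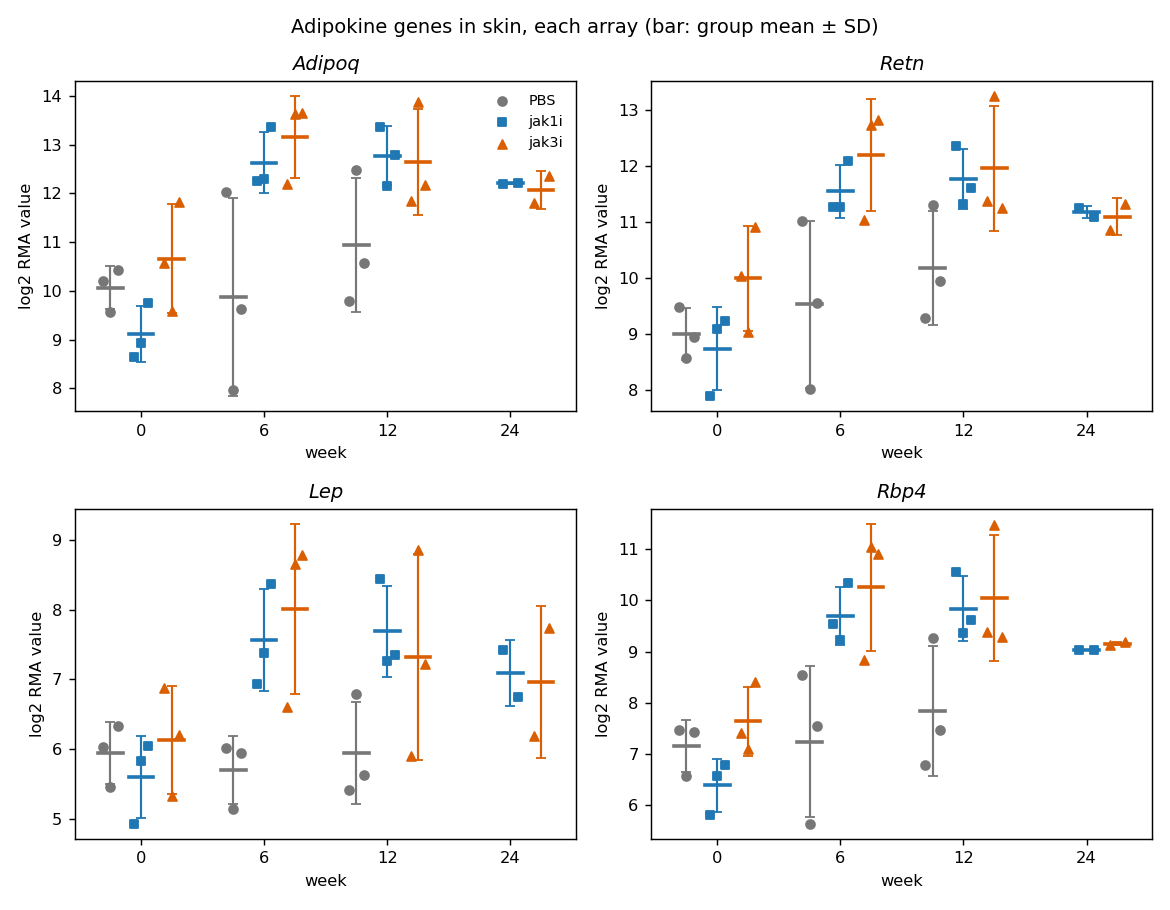
Log2 RMA value (y axis) of the 4 measured adipokine genes by week (x axis), 1 point per array, with grey circles for PBS, blue squares for jak1i and orange triangles for jak3i; bars give the group mean ± SD (n = 3, and 2 at 24 weeks). All jak1i arrays from 6 weeks on lie above the jak1i arrays at 0 weeks in the 4 panels, while the PBS arrays at 6 weeks range from 7.97 to 12.02 for Adipoq.

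Counted over the 4 genes, calls in the jak1i arm were as follows. At 12 weeks against 0 weeks 4 of 4 were called higher, where 9.76% of all genes tested were called higher, and all 4 had jak1i arrays wholly above those at 0 weeks, as had 20.4% of all genes. Leaving out 1 array at a time gave 3 or 4 calls, and the gene lost in each case was Lep. At 6 weeks 3 of 4 were called (5.94% of all genes) and all 4 were wholly above (14.1%). Retn lost its call there without jak1i at 0 weeks replicate 1 or at 6 weeks replicate 3, with a limma adjusted p of up to 0.0631. With 2 arrays at 24 weeks, 0 of 4 were called in limma (1.03% of all genes, and 3709 genes at an unadjusted p under 0.05), at differences of 3.10 for Adipoq, 2.43 for Retn, 1.49 for Lep and 2.64 for Rbp4 and limma adjusted p from 0.0638 to 0.257.

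In the jak3i arm the differences from 0 weeks were positive for all 4 genes as well. Its 0-week mean lay above that of jak1i for each, and whether the changes of the 2 inhibitor arms differ was not tested. At 6 weeks 1 of 4 genes was called higher, Rbp4, where 1.10% of all genes were. At 12 weeks again Rbp4 alone was called, against 7.41% of all genes, and at 24 weeks 0 of 4 were called in limma, against 0.0934% of all genes (3122 genes at an unadjusted p under 0.05), with differences of 1.41 for Adipoq, 1.10 for Retn, 0.83 for Lep and 1.52 for Rbp4. These counts changed with single arrays. At 6 weeks 3 genes were called without jak3i at 0 weeks replicate 3, the highest of that group in Adipoq, Retn and Rbp4, and 4 without jak3i at 6 weeks replicate 1, the array with high hair shaft markers. At 6 weeks the count was 0 without replicate 1 or 2 at 0 weeks or replicate 2 or 3 at 6 weeks. At 12 weeks it was 2 without jak3i at 0 weeks replicate 3, and 0 without replicate 1 or 2 of either group.

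Set against PBS at the same time, the 4 genes stood higher in both arms at 6 weeks, with every inhibitor array above every PBS array, as 9.66% of all genes were under jak1i and 7.69% under jak3i. For jak3i 3 of 4 passed, Adipoq, Retn and Rbp4, where 0.445% of all genes were called higher, and Adipoq ranked 2nd and Rbp4 4th among all rises. For jak1i 0 of 4 passed in limma, where 0.143% were called higher (3169 genes at an unadjusted p under 0.05), and the ranks were 4th for Adipoq and 9th for Rbp4. Both counts moved with single arrays. The jak1i count was 3 without PBS at 6 weeks replicate 1, the PBS array highest in fat cell markers at that time. The jak3i count was 4 without jak3i at 6 weeks replicate 1, and 0 without jak3i replicate 2 or 3 or PBS replicate 2 or 3. With only the compared arrays in the fit the jak3i count was 0, where 39 of all 18193 genes were called in either direction, against 353 with all arrays.

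At 12 weeks the differences from PBS ran from 1.59 for Retn to 2.0 for Rbp4 under jak1i and from 1.38 for Lep to 2.20 for Rbp4 under jak3i. None of the 4 passed in limma under jak1i, where 6.85% of all genes were called higher (5436 at an unadjusted p under 0.05), and Rbp4 alone passed under jak3i, where 10.0% were. The PBS array at 12 weeks replicate 2 was the highest of its group for all 4 genes. It lay within the range of the inhibitor arrays for Adipoq in both arms and for Retn and Lep under jak3i, and below every inhibitor array for Rbp4 in both arms and for Retn and Lep under jak1i. Without it 4 of 4 passed for jak1i and 3 of 4 for jak3i. Without jak3i at 12 weeks replicate 1 or 2, or PBS at 12 weeks replicate 1 or 3, the jak3i count was 0. Since PBS at 12 weeks was low in muscle markers, PBS at 6 weeks was also used as the control, and it gave 0 calls among the 4 for jak1i and 1 for jak3i, where 15 and 419 of all 18193 genes were called in either direction. With the muscle list mean as a covariate 0 of 18193 genes were called in limma in either arm. Under jak3i the difference from PBS at 12 weeks was then −0.11 (SE 1.41) for Rbp4, −0.97 (SE 1.56) for Adipoq, −0.43 (SE 1.35) for Retn and 0.61 (SE 1.39) for Lep, each smaller than its error.

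**Figure D2:**
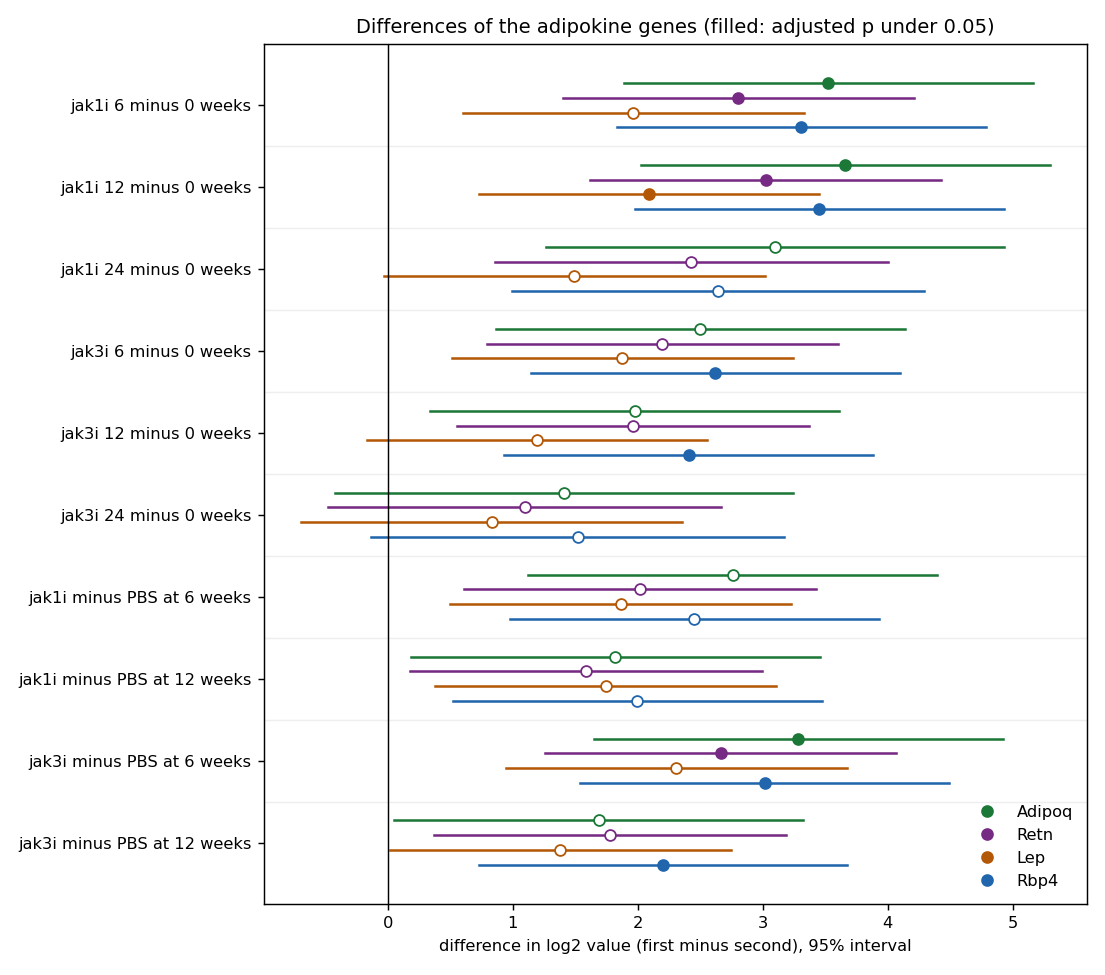
Difference in log2 value (x axis, first group minus second) of Adipoq, Retn, Lep and Rbp4 in 10 comparisons (y axis), with the 95% interval from limma; filled points have an adjusted p under 0.05. All 40 points lie above 0, the highest for jak1i at 12 minus 0 weeks (Adipoq 3.66), and the intervals of 6 of them reach below 0, all in comparisons of 24 or 12 weeks with 0 weeks.

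At 0 weeks no difference between the arms passed for the 4 genes. Jak1i lay below PBS by a median of −0.56 and jak3i above by 0.54, with 0 of 4 called in limma in each, against 0% and 0% of all genes (917 and 1378 at an unadjusted p under 0.05). In PBS over time the medians were −0.05 from 0 to 6 weeks, 0.79 from 0 to 12 weeks and 0.63 from 6 to 12 weeks. In limma 0 of 4 were called each time, against 0.00550%, 2.28% and 0.401% of all genes (1786, 2960 and 1460 at an unadjusted p under 0.05). From 12 to 24 weeks the members' medians were −0.60 in jak1i and −0.71 in jak3i, again with 0 of 4 called in limma, against 0% and 0.0330% of all genes (610 and 938 at an unadjusted p under 0.05).

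No difference between the inhibitors at the same time passed for these genes. The median of jak1i minus jak3i was −0.55 at 6 weeks, −0.03 at 12 weeks and 0.10 at 24 weeks, with 0 of 4 called in limma at each, against 0%, 0% and 0% of all genes (470, 1087 and 114 at an unadjusted p under 0.05). The 95% intervals were wide, from −1.5 to 1.77 for Adipoq and from −1.0 to 1.73 for Lep at 12 weeks, so for Adipoq differences of over 2-fold in either direction lie within the interval. The change in an inhibitor arm minus the change in PBS had a median of 2.75 for jak1i and 2.33 for jak3i from 0 to 6 weeks, and of 2.43 and 1.14 from 0 to 12 weeks. In limma 0 of 4 passed in any of these tests of the difference in change. Of all genes 0.121% and 0.00550% passed at 6 weeks and 6.85% and 4.55% at 12 weeks (2882, 2194, 4614 and 4480 at an unadjusted p under 0.05). For jak1i 2 of 4 passed at 6 weeks without PBS at 6 weeks replicate 1, and 2 of 4 at 12 weeks without PBS at 12 weeks replicate 2.

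Ordered by mean, the 11 groups fell in nearly the same sequence for each gene. Jak3i at 6 weeks came highest, at 13.16 ± 0.84 for Adipoq, 12.20 ± 1.0 for Retn, 8.01 ± 1.22 for Lep and 10.26 ± 1.24 for Rbp4 (SD, n = 3). Jak1i at 0 weeks came lowest, at 9.11 ± 0.58, 8.75 ± 0.74, 5.60 ± 0.59 and 6.39 ± 0.52 in the same order (SD, n = 3). The inhibitor groups at 6 and 12 weeks took the first 4 places, those at 24 weeks the next, and the PBS and 0-week groups the last 5. Most neighbours in this order overlapped. Those apart were jak1i at 6 weeks and the 24-week group below it, for Adipoq, Retn and Rbp4, and for Rbp4 also the 24-week groups (9.15 ± 0.03 for jak3i and 9.03 ± 0.00 for jak1i, SD, n = 2).

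Receptors and partners of the adipokines were a mixed group. Of 11 measured, 3 rose and 0 fell from 0 to 12 weeks under jak1i, where 9.76% of all genes rose and 6.50% fell, with a median of 0.27 against −0.04 over all genes. They were the leptin receptor gene Lepr (2.21, SE 0.56, limma adjusted p = 0.0111, 4.63-fold), Cdh13 for T-cadherin, which binds adiponectin (1.07, SE 0.34, 0.0343), and Appl1, an adaptor of the adiponectin receptors (0.43, SE 0.10, 0.00607). C3ar1, the receptor of the complement peptide C3a, stood at −1.02 (limma adjusted p = 0.229). Of the same 11 genes 3 rose and 0 fell under jak3i, where 7.41% of all genes rose and 2.85% fell, with a median of 0.31 against 0 over all genes. Cdh13 (1.13, SE 0.34, limma adjusted p = 0.04), the receptor gene Adipor2 (0.66, SE 0.21, 0.0488) and Appl1 (0.32, SE 0.10, 0.0386) passed there, and Lepr (0.74, 0.361) did not. The Lepr means at 12 weeks were 8.71 under jak1i and 8.70 under jak3i, from 6.50 and 7.96 at 0 weeks. Measured against PBS at 12 weeks, 1 of the 11 was higher and 2 lower under jak1i (differences from −1.86 to 0.91). Under jak3i 2 were higher and 0 lower. Of all genes 6.85% were higher and 6.51% lower under jak1i, and 10.0% and 7.28% under jak3i. For change minus PBS change over 12 weeks 0 of 11 passed in limma in either arm (6.85% and 4.55% of all genes).

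Relatives of adiponectin and resistin were seldom called, in either direction. Of 10 paralogs, 0 rose and 1 fell from 0 to 12 weeks under jak1i (median 0.47), where 9.76% of all genes rose and 6.50% fell. C1qtnf12, a gene of the adiponectin family, fell by 0.64 (SE 0.20, limma adjusted p = 0.0344) under jak1i and by 0.72 (SE 0.20, 0.0345) under jak3i. Its jak1i call was lost with each of the 6 arrays left out in turn (limma adjusted p from 0.0558 to 0.108). Another member of that family, C1qtnf9, rose under jak3i by 1.85 (SE 0.49, limma adjusted p = 0.0303) and stood at 0.88 (0.22) under jak1i. Under jak3i this left 1 rise and 1 fall among the 10 (median 0.48), where 7.41% of all genes rose and 2.85% fell. With 10 genes, counts of 0 or 1 lie near these shares. The resistin-like gene Retnla, known from macrophages, stood at 1.91 under jak1i (limma adjusted p = 0.127). C1qtnf7 stood at 0.78 under jak1i (limma adjusted p = 0.162) and C1qtnf1 at 0.68 under jak3i (0.135). With PBS at 12 weeks as control, 0 of 10 were called in limma under jak1i, and 1 was higher and 1 lower under jak3i. Of all genes 6.85% were higher and 6.51% lower under jak1i, and 10.0% and 7.28% under jak3i. For change minus PBS change over 12 weeks 0 of 10 passed in limma in either arm (6.85% and 4.55% of all genes).

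Among 18 other factors that fat cells can secrete, 1 rose and 3 fell from 0 to 12 weeks under jak1i (median −0.06), and 0 rose and 1 fell under jak3i (median −0.05). Of all genes 9.76% rose and 6.50% fell under jak1i, and 7.41% rose and 2.85% fell under jak3i. The falls included Ccl2, the chemokine that draws monocytes, by 2.64 (SE 0.73, limma adjusted p = 0.0182) under jak1i and by 2.28 (SE 0.73, 0.0488) under jak3i. Lcn2, an iron-scavenging lipocalin that epidermis and neutrophils make too, fell by 3.65 (SE 1.01, limma adjusted p = 0.0185) under jak1i and stood at −1.77 (0.226) under jak3i. Nrg4, a growth factor of fat, stood at 1.78 (limma adjusted p = 0.0579) and 1.58 (0.0958). Set against PBS at 12 weeks, 0 of 18 were higher and 4 lower under jak1i, and 0 were higher and 2 lower under jak3i. Of all genes 6.85% were higher and 6.51% lower under jak1i, and 10.0% and 7.28% under jak3i. For change minus PBS change over 12 weeks 0 were higher and 2 lower for jak1i (6.85% of all genes called in either direction). For jak3i 0 passed in limma (4.55%).

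From 0 to 12 weeks transcription factors of fat cells rose in 5 of 11 and fell in 0 under jak1i (median 0.46). Under jak3i they rose in 3 and fell in 0 (median 0.72). The shares of all genes that rose were 9.76% under jak1i and 7.41% under jak3i. Pparg, the master regulator of fat cell differentiation, rose by 2.07 (SE 0.56, limma adjusted p = 0.0166) under jak1i and stood at 1.55 (0.0709) under jak3i. Ebf1, an early fat cell factor, rose by 1.71 (SE 0.39, limma adjusted p = 0.00716) under jak1i and by 1.35 (SE 0.39, 0.0373) under jak3i. Zfp423, which marks commitment to the fat lineage, rose by 1.54 (SE 0.40, limma adjusted p = 0.0138) and by 1.5 (SE 0.40, 0.0316). Ebf2 had the largest difference of the list under jak3i, 2.12 (SE 0.47, limma adjusted p = 0.0208). Against PBS at 12 weeks 1 of the 11 was higher and 1 lower under jak1i, and 5 were higher and 1 lower under jak3i. Of all genes 6.85% were higher and 6.51% lower under jak1i, and 10.0% and 7.28% under jak3i. For change minus PBS change over 12 weeks 0 of 11 passed in limma for jak1i (6.85% of all genes). For jak3i 0 were higher and 1 lower (4.55% called in either direction).

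Other markers of mature fat cells were counted apart from the hormones. From 0 to 12 weeks 9.76% of all genes rose under jak1i and 7.41% under jak3i. Under jak1i at 12 weeks 6 of 11 rose and 0 fell (median 1.30), led by Pck1 (3.00, SE 0.99, limma adjusted p = 0.0427), the lipid droplet gene Cidec (2.88, SE 0.79, 0.017) and Plin4, which coats droplets (1.88, SE 0.58, 0.0312). Under jak3i 1 of 11 rose and 0 fell (median 1.23), the glycerol phosphate dehydrogenase gene Gpd1 (1.74, SE 0.40, limma adjusted p = 0.0219), while Cidec stood at 1.87 (0.11) and Pck1 at 1.84 (0.201). Compared with PBS at 12 weeks, 4 of 11 were higher and 0 lower in each inhibitor arm, where 6.85% and 10.0% of all genes were higher. For change minus PBS change over 12 weeks 1 of 11 was higher in each arm, where 2.99% and 2.59% of all genes were. Of the called genes named from these lists, Appl1 and Ebf1 kept their calls under jak1i with each of the 6 arrays left out in turn. The others each lost theirs without 2 or more of the 6 jak1i arrays, with limma adjusted p up to 0.196 (Pck1). Under jak3i every named gene lost its call without 4 or 5 of 6 arrays, with limma adjusted p up to 0.218 (Adipor2), and the arrays concerned were replicates 1 and 2 at 0 and at 12 weeks and, for some, replicate 3 at 12 weeks.

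**Figure D3:**
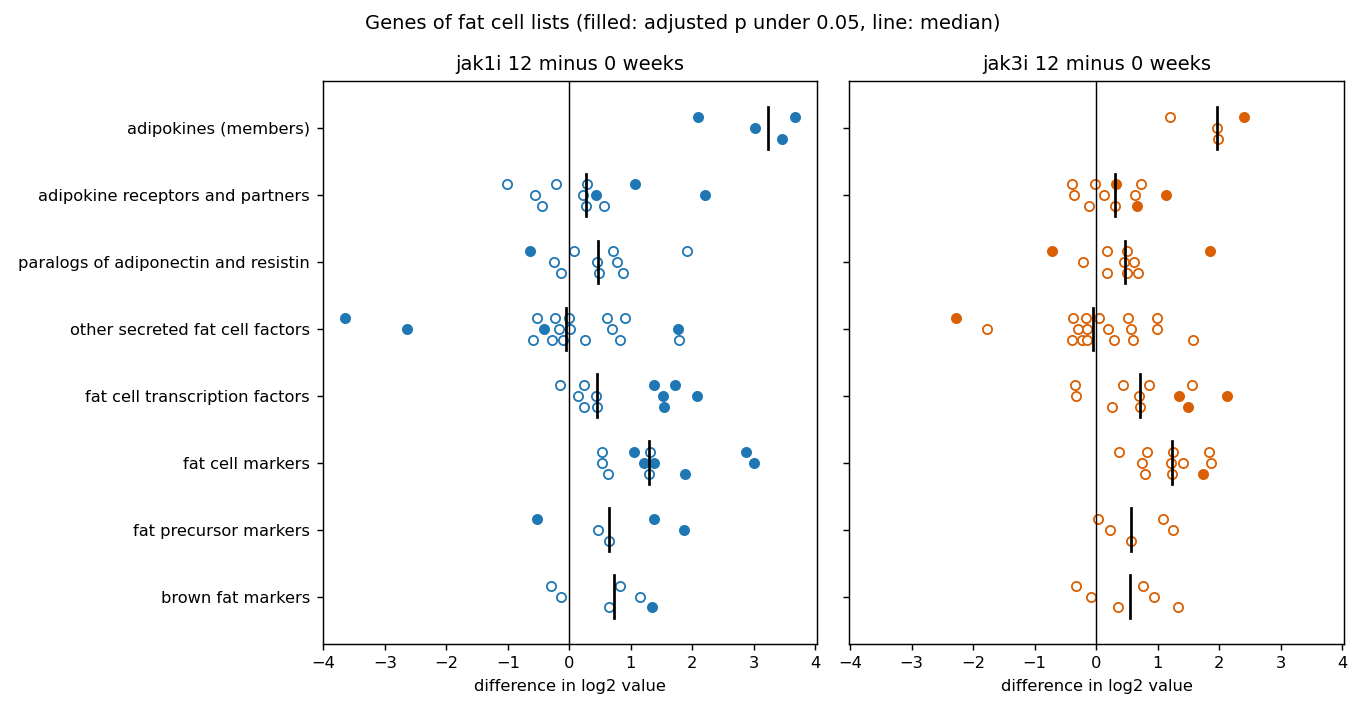
Difference in log2 value between 12 and 0 weeks (x axis) for each measured gene of 8 lists (y axis), jak1i on the left and jak3i on the right; filled points have a limma adjusted p under 0.05 and the black line is the list median. The 4 adipokine genes have the highest median in both panels, while most receptors, paralogs and other secreted factors lie within 1 unit of 0.

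The 4 genes rose and fell together from array to array. Pearson correlations between pairs over the 31 arrays, which were normalised together and share the effects of arm and week, ran from 0.881 (Adipoq and Lep) to 0.985 (Rbp4 and Retn). Taken on deviations from the group means they ran from 0.722 to 0.966, lowest again for Adipoq and Lep. Other genes were then ranked by likeness, with the members themselves and gene models without a name left out. Among these, the 5 genes most like each member over the 31 arrays were Ghr, Cdo1, Cd36, Aoc3 and Cidec for Adipoq (r from 0.97 to 0.971), Cdo1, Cavin2, Lpl, Aoc3 and Gstz1 for Retn (0.97 to 0.98), and Cavin2, Cdo1, Aoc3, Sgce and Ghr for Rbp4 (0.974 to 0.983). Those of Lep were Smoc1, Aoc3, Sncg, Ankef1 and Mmd, with lower values of 0.913 to 0.92. Aoc3 appears in all 4 sets.

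Marker lists of fat cells and of other cells were set beside the adipokine genes, as descriptions without a test. Adipoq correlated over the 31 arrays at 0.96 with the mean of 11 fat cell markers, at 0.87 with 6 endothelial markers, at −0.82 with 8 cytotoxic lymphocyte markers and at −0.64 with 10 hair shaft markers. Within groups the values were 0.92, 0.79, −0.41 and −0.35. For Lep the values within groups were 0.81, 0.58, −0.17 and −0.36 in the same order. Adipoq also correlated with fat cell transcription factors at 0.92 (0.87 within groups), fat precursor markers at 0.9 (0.83) and sebaceous gland markers at 0.68 (0.48). From 0 to 12 weeks cytotoxic markers fell in 8 of 8 under jak1i (median −2.08) and 7 of 8 under jak3i (median −1.70), and endothelial markers rose in 3 of 6 (median 1.04) and 6 of 6 (median 1.56). Of all genes 6.50% fell and 9.76% rose under jak1i, and 2.85% fell and 7.41% rose under jak3i. The cytotoxic list mean ran from 0.38 to 1.79 at 0 weeks, from 0.63 to 1.72 in later PBS arrays and from −1.87 to −0.62 in inhibitor arrays at 6 and 12 weeks, and the endothelial list mean ran from −0.91 to 0.13, from −1.19 to 0.34 and from −0.22 to 1.4. In the 4 inhibitor arrays at 24 weeks the ranges were −0.97 to 0.86 for cytotoxic and −0.18 to 0.84 for endothelial markers. Hair shaft markers had medians of −3.83 with 0 of 10 called and −4.62 with 5 of 10 lower. In the inhibitor arrays at 6 weeks with hair shaft means of 3.00 and 3.53, the mean of the 4 adipokine genes was 0.73 and 0.34, above the −2.63 to 0.08 of the PBS arrays at 6 weeks. The other inhibitor arrays at 6 weeks had adipokine means of 0.67 to 2.22.

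With a marker list mean added to the fit as a covariate, the rise of Adipoq from 0 to 12 weeks under jak1i was 1.23 (limma adjusted p = 0.147) for fat cell markers, 2.95 (0.0601) for hair shaft markers and 3.07 (0.0273) for muscle markers, beside 3.66 without one. For Rbp4 the values were 1.19 (limma adjusted p = 0.0747), 2.58 (0.0527) and 2.94 (0.0231), beside 3.45. Calls over all 18193 genes in this comparison fell from 2958 to 32, 531 and 1289 in the 3 fits. The call of Rbp4 from 0 to 12 weeks under jak3i was lost in each, at 0.49 (limma adjusted p = 0.534), 1.30 (0.687) and 2.15 (0.0646) beside 2.41, where calls over all genes fell from 1867 to 0, 0 and 666. The part of cytotoxic and endothelial markers in the result was not tested.

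**Figure D4:**
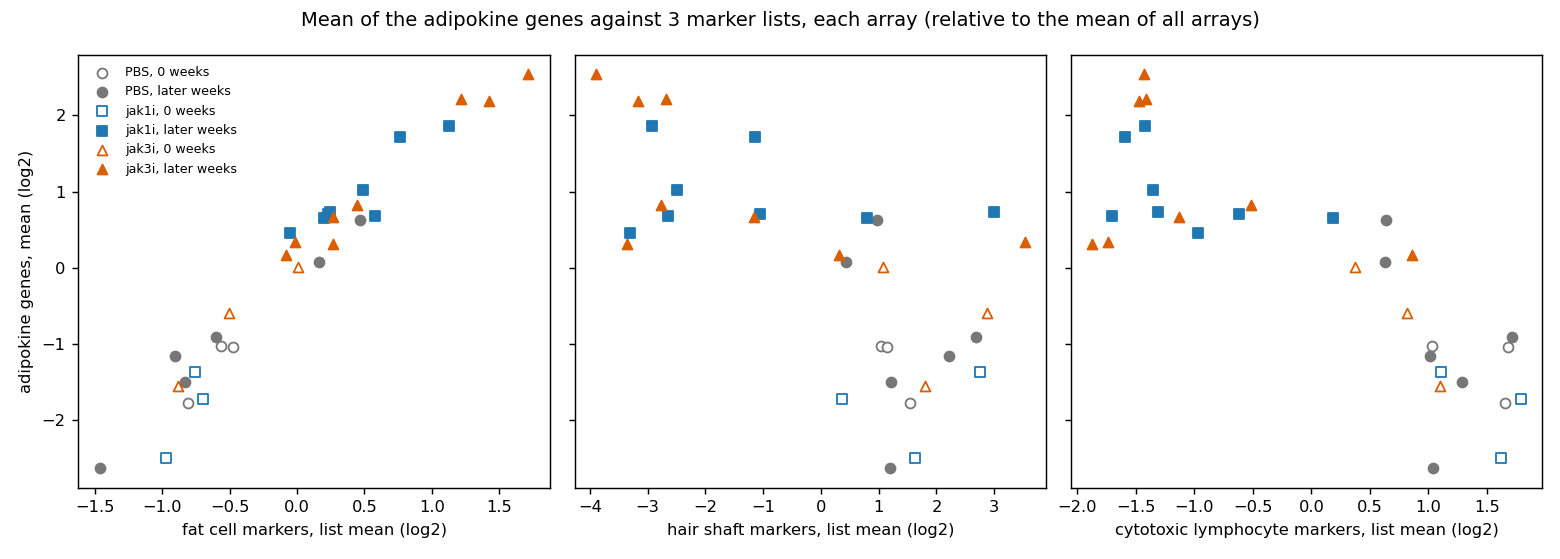
Mean of the 4 adipokine genes (y axis, log2, relative to the mean of all arrays) against the mean of fat cell, hair shaft and cytotoxic lymphocyte markers (x axes, log2), 1 point per array; open symbols are 0 weeks, filled symbols later weeks. The adipokine mean follows the fat cell markers closely in all arms, and the 2 inhibitor arrays with hair shaft means of 3.00 and 3.53 have adipokine means of 0.73 and 0.34, the latter the lowest of the inhibitor arrays at 6 weeks.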

How the data were processed

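RNA of C3H/HeJ mouse skin, extracted with miRNeasy and labelled with a 3′ IVT kit per the labels, was measured on 31 Affymetrix arrays. Per the submitters' processing notes the arrays were processed with RMA, which corrects background, equalises the arrays and summarises probe sets (which version was used is not given in the sources). The deposited values are log2 values, checked by their range of 2.59 to 14.69, and no count or depth exists for them, so the number of arrays limits the precision. Genes came from probe sets with 1 symbol (34945 of 45101), and the probe set of highest mean stood for a gene. A linear model of the 11 group means was fitted to all 31 arrays with limma 3.58.1 in R 4.3.3 (20 residual and 2.50 prior degrees of freedom). Genes with a Benjamini-Hochberg adjusted p under 0.05 over all 18193 genes of a comparison were called, and intervals are 95% intervals. The fit was tested on simulated data with known changes before use.

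For each list of fat-related genes the text names, from 0 to 12 weeks, the 3 genes with the largest difference and, where 3 or fewer passed, all that passed, and for each adipokine gene the 5 genes of highest correlation. Members and gene models without a name were left out of the ranking by correlation. The lists of other cells are given by counts and medians only. The members and lists were chosen with earlier results of these data known. Replicate numbers were not taken as pairs. Other settings tried were median centring, leaving out dim genes, the mean of all probe sets, a trended robust variance, the compared arrays only, replicate blocks, 3 marker list covariates, PBS at 6 weeks as control, and leaving out each array. Scan dates and detection calls were not used here.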

Additional observations from a re-analysis of the deposited data

How the results depend on the processing

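Adipoq, Retn and Rbp4 kept their calls for jak1i at 12 against 0 weeks under every setting tried, arrays left out in turn included, except the fat cell and hair shaft covariates. The numbers that follow are counts of adipokine genes called, with calls over all 18193 genes in either direction, under that setting and with all arrays, beside them. Fitting only the compared arrays gave 0 for jak3i minus PBS at 6 weeks (39 genes, from 353) and 0 at 12 weeks (2164, from 3148), 0 for jak3i at 6 (59, from 573) and 0 at 12 against 0 weeks (1408, from 1867), 1 for jak1i at 24 against 0 weeks (50, from 216) and 2 for the jak1i minus PBS change at 12 weeks (2239, from 1247). Deviations from the group means of same-numbered arrays of an arm correlated at −0.606 to 0.495. With 2 or 3 arrays a group such deviations sum to 0, so this cannot decide whether the numbers pair the arrays. The replicate block, fixed or random, gave 0 for jak3i at 6 against 0 weeks (399 and 422 genes; Rbp4, limma adjusted p = 0.0611 and 0.0559) and moved no other count by over 1.5 times. The fat cell covariate gave 0 for jak3i minus PBS at 6 (0 genes) and 0 at 12 weeks (335), 1 and 0 for jak1i at 6 (105, from 2250) and 12 against 0 weeks (32, from 2958), and 0 and 0 for jak3i (5 and 0). The hair shaft covariate gave 0 and 0 for jak3i minus PBS (222 and 139), 0 for jak1i at 12 against 0 weeks (531), and 0 and 0 for jak3i at 6 and 12 weeks (175 and 0). The muscle covariate gave 0 for jak3i minus PBS at 12 weeks (0) and 0 and 0 for jak3i at 6 and 12 against 0 weeks (416 and 666). Where few or no genes were called at all, a count of 0 says nothing particular of the adipokine genes. With 1 array left out at a time the counts ran from 2 to 3 and from 3 to 4 for jak1i at 6 and 12 against 0 weeks, from 0 to 4 and from 0 to 2 for jak3i, from 0 to 3 and 0 to 4 for jak1i minus PBS at 6 and 12 weeks, from 0 to 4 and 0 to 3 for jak3i minus PBS, and from 0 to 2 for the jak1i minus PBS change at either time. Signs reversed with the fat cell covariate for Adipoq (−0.14) in jak3i minus PBS at 12 weeks, for jak1i at 12 against 0 weeks in Nrg4 (−0.13), C1qtnf9 (−0.29), C1qtnf7 (−0.19), Pck1 (−0.12), Plin4 (−0.009), Elovl3 (−0.24) and Pdgfra (−0.058), and for jak3i at 12 against 0 weeks in Adipoq (−0.085), Lep (−0.32), Nrg4 (−0.035), Cidec (−0.30), Pck1 (−0.81) and Pdgfra (−0.021). With the hair shaft covariate they reversed for C1qtnf9 (−0.051, jak1i) and Cidea (−0.38, jak3i) at 12 against 0 weeks. With the muscle covariate they reversed at 12 weeks against PBS for Adipoq (−0.85), Retn (−0.63) and Rbp4 (−0.33) under jak1i and for Adipoq (−0.97), Retn (−0.43) and Rbp4 (−0.11) under jak3i, each smaller than its SE of 1.35 to 1.57. Elovl3 in jak1i at 12 against 0 weeks ran from −0.093 to 1.28 with 1 array left out. The covariates were measured on the same arrays, and beyond that the cause was not tested. The number of arrays, 2 or 3 a group, limits what could be called.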

Other observations

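Genes of fat precursor cells and of brown fat were not described above. From 0 to 12 weeks under jak1i, 2 of 5 precursor markers rose and 1 fell (median 0.64), where 9.76% of all genes rose and 6.50% fell. Pi16, a marker of early progenitors, rose by 1.87 (SE 0.60, limma adjusted p = 0.0373) and Cd34 by 1.37 (SE 0.37, 0.0161). Endothelial markers rose in the same comparison, and which cells of whole skin carried these rises was not tested. Dlk1 fell by 0.53 (SE 0.10, limma adjusted p = 0.00358), a 1.44-fold difference at a low level. Its means of 5.57 at 0 weeks and 5.04 at 12 weeks lie below the array medians of 6.05 to 6.24. The call of Dlk1 held without each of the 6 arrays in turn, whereas Pi16 and Cd34 lost theirs without 4 and 2 of them (limma adjusted p up to 0.135 and 0.0731). Under jak3i 0 of 5 were called in limma, with Cd34 at 1.09 (limma adjusted p = 0.0574) and Pi16 at 1.24 (0.155). Of all genes 7.41% rose and 2.85% fell there. Pdgfra, the receptor gene that marks such precursors, stood at 0.64 (limma adjusted p = 0.195) under jak1i and 0.57 (0.248) under jak3i. Relative to PBS at 12 weeks, 0 of 5 were higher and 1 lower under jak1i, and 1 was higher and 0 lower under jak3i. Of all genes 6.85% were higher and 6.51% lower under jak1i, and 10.0% and 7.28% under jak3i.

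Of 6 brown fat markers, 1 was called higher from 0 to 12 weeks under jak1i, where 9.76% of all genes were. It was Cidea, which rose by 1.35 (SE 0.45, limma adjusted p = 0.0424) and lost this call without 5 of the 6 arrays. Which cells of whole skin carried the rise of Cidea was not tested. Ucp1, also in this list, had a mean of 4.64 over the arrays, below the median of all values (6.18), and was not called. Elovl3, a lipid elongase that sebaceous glands also express, stood at 0.82 (limma adjusted p = 0.284), and Cox8b at 1.15 (0.219). Under jak3i 0 of 6 were called in limma, with Cox8b at 1.32 (limma adjusted p = 0.16), Ppargc1a at 0.93 (0.131) and Cidea at 0.76 (0.236). There 7.41% of all genes rose and 2.85% fell. Against PBS at 12 weeks 3 of 6 were higher in each inhibitor arm, where 6.85% of all genes were under jak1i and 10.0% under jak3i. Among them was Cox8b, higher by 3.79 (SE 0.65, limma adjusted p = 0.00134) under jak1i and by 4.24 (SE 0.65, 3.64e-04) under jak3i. Cox8b is also a gene of striated muscle, and the PBS arrays at 12 weeks were those low in muscle markers.

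The remaining lists were compared from 0 to 12 weeks. Over all genes 9.76% rose and 6.50% fell under jak1i, and 7.41% rose and 2.85% fell under jak3i. Of 7 sebaceous gland markers 3 rose and 1 fell under jak1i (median 0.98), and 0 were called in limma under jak3i (median 0.60). Of 8 macrophage markers 1 rose and 0 fell under jak1i (median −0.01), and 0 were called under jak3i (median 0.03). The 6 epidermis markers had medians of −0.19 under jak1i and 0.13 under jak3i, with 0 called in either. Of 12 skeletal muscle markers 1 rose and 0 fell under jak1i (median 0.95), and 0 were called in limma under jak3i (median 0.59).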
